A study of Mus musculus with 8 samples.

Results

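The genes described here are those of the ATF4 pathway, amino acid supply and tRNA charging in tumour CD8+ T cells. They were chosen by name, 37 genes of the 20029 in the deposited table, and all 37 were found there. The choice was made with earlier results of these data known. They fall into 9 stress factors, 10 enzymes of amino acid synthesis and one-carbon metabolism, 7 amino acid transporters and 11 cytosolic tRNA synthetases. The question asked of them was how their RNA levels compare between T cells of mice that lack Pglyrp1, which encodes a peptidoglycan recognition protein, and T cells of wild-type mice.

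The libraries came from tumours of MC38-OVA, a mouse colon carcinoma line carrying the model antigen ovalbumin, grown under the skin of the right flank. The knockout (KO) group held 4 mice of the strain B6.129S4-Pglyrp1tm1.1Lky/J, replicates 1 to 4, in which the gene is absent from every cell of the host and not from T cells alone. The wild-type (WT) group held 4 C57BL/6J mice, replicates 6 to 9. Both strains were bought from the Jackson Laboratory, and no drug treatment is named. The sources used here state neither the age and sex of the mice nor the day of tumour collection. Live cells carrying CD45, TCRβ and CD8 were sorted, 1000 from each tumour, and sequenced by a full-length SMART-Seq2 method with read pairs of 38 bases.

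ATF4 is the transcription factor at the centre of the integrated stress response. Kinases that sense amino acid shortage, misfolded protein, viral RNA or haem lack phosphorylate the initiation factor eIF2, which lowers protein synthesis in general while the Atf4 message is translated more. ATF4 then pairs with C/EBP family proteins at a composite DNA element and switches on genes for amino acid uptake, amino acid synthesis and tRNA charging. Because ATF4 is controlled largely at translation, its RNA level is not a measure of its protein. In T cells, amino acid transport and serine-dependent one-carbon metabolism are known to rise when the cells are activated and divide.

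The element bound by ATF4 with C/EBP partners has the core TGATGNAA. Its occurrence is shown first because it is read from promoter sequence and not from the expression values. RefSeq promoters (build GRCm38.p6, from 250 bases before to 50 bases after a transcript start) matched 32 of the 37 genes. Lars, Nars, Slc38a1, Slc7a5 and Wars had no entry. On either strand the core was present for 12 of the 32 matched genes (37.5%), beside 3.97% of all 32851 promoters of the same length and 4.51% of all 27025 genes with a promoter entry. By class it was present for 3 of 9 stress factors, 3 of 10 enzymes, 1 of 5 transporters and 5 of 8 synthetases. The genes were listed because many are known ATF4 targets, so this share describes the list and tests nothing. The stretches below are 60 bases each, 5′ to 3′ on the gene's own strand, all lying before the RefSeq transcript start. The core is in capitals (TTNCATCA where it lies on the opposite strand). All distances below count from the RefSeq start. GENCODE places some gene bounds further upstream, so the cores of Asns, Nupr1 and Aars lie inside those genes by GENCODE. They are shown for genes whose values are described in detail and for synthetases with a match before the start.
Got1, chr19:43524674-43524733, minus strand: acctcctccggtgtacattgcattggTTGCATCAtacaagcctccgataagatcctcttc
Asns, chr6:7693210-7693269, minus strand: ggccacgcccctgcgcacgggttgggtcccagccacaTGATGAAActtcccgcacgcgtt
Chac1, chr2:119351023-119351082, plus strand: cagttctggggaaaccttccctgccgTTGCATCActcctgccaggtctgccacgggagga
Nupr1, chr7:126625547-126625606, minus strand: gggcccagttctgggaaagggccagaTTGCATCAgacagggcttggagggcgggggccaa
Aars, chr8:111033704-111033763, plus strand: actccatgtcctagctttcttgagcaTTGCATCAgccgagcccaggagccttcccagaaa
Gars, chr6:55037941-55038000, plus strand: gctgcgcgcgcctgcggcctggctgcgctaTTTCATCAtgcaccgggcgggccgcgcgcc
Tars, chr15:11399659-11399718, minus strand: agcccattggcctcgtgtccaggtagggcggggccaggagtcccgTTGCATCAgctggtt
In Got1 the core begins 102 bases before the start, in Asns 23, in Chac1 193, in Nupr1 110, in Aars 112, in Gars 30 and in Tars 15. Pycr1 and Slc7a11 also had the core before the start, and in Trib3, Yars and Iars it began just after it. Atf4, Ddit3, Mthfd2 and Slc3a2 did not have these letters in the window searched. The median KO minus WT difference was 0.50 on the log2 scale for the 12 genes with the core and 0.29 for the 20 without, a description with no test. These medians use all libraries and were not recomputed with libraries left out. Without KO 3, KO 4, WT 6 and WT 9, differences turned negative for Trib3, Slc7a11, Aars, Gars, Tars and Yars. All of these have the core. Differences also turned negative for Atf5, Cebpb, Sesn2 and Phgdh, which do not have it.

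Values are given as TPM, the deposited score of each library rescaled to a sum of 1000000. The authors' name for the score is TPM-normalized, which would make levels comparable between genes per length, but how it was scaled is not stated, so orders of level between genes hold only if the name does. Differences are KO minus WT means of log2(TPM + 1), which understates the change of low genes. Deposited scores summed to between 2223162 and 3342847 per library, with 11935 to 13300 genes above 0. A score of 1 corresponds to 0.299 to 0.450 TPM, depending on the library, the read depth is unknown, and values of a few TPM rest on a few such units. Pglyrp1 was listed at 0 in every KO library and at 123 to 209.6 TPM in WT libraries. The CD8 T cell markers Cd3d, Cd3e, Cd3g, Cd8a, Cd8b1, Cd2 and Lck were above 0 in every library, with a summed level of 5418 to 6079 TPM in KO and 5517 to 7595 TPM in WT libraries.

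Libraries within each genotype differed before any comparison of genotypes. KO 3 and KO 4 carried markers of macrophages, monocytes and dendritic cells, 13 of 14 listed genes being higher in both than in each of the other 6 libraries. The summed level of that list was 5354 and 8426 TPM in KO 3 and KO 4, 344 and 241 TPM in KO 1 and KO 2, and 185 to 771 TPM in WT libraries. Tyrobp, an adaptor used by both NK and myeloid cells, reached 1280 TPM in KO 3 and 1291 TPM in KO 4 and lay between 23.3 and 84.9 TPM elsewhere, while the other 4 genes listed for NK cells (Ncr1, Klrb1c, Klra8 and Eomes) were at most 14.1 TPM in any library. Erythroid and platelet markers summed to 1248 TPM in KO 1, 976 TPM in KO 4, 469 TPM in WT 9 and 3.60 to 45.5 TPM elsewhere. Stromal, endothelial and tumour markers summed to 137 TPM in KO 4 and 20.7 to 38.6 TPM elsewhere. Of the macrophage list's defining genes, Lyz2, Csf1r, Itgam, Emr1, Cd14, C1qa, C1qc, Fcgr3 and Ccl6 were at 0 in WT 6. WT 6 and WT 9 carried markers of naive and memory T cells, 6 of 7 listed genes being higher in both than in each other library. That list summed to 2220 and 1988 TPM in WT 6 and WT 9, 556 and 627 TPM in WT 7 and WT 8, and 365 to 1314 TPM in KO libraries. B and plasma cell markers summed to 46.3 and 49.6 TPM in WT 6 and WT 9 and to 6.05 to 20.8 TPM elsewhere. Of these, 4 of 5 listed genes were highest in both. The CD4 T cell list summed to 51.2 to 227 TPM, highest in KO 3, where Cd4 was at 66.7 TPM beside at most 15.6 TPM elsewhere. Markers of dividing cells summed to 352 and 407.5 TPM in WT 6 and WT 9 and to 470.2 to 729 TPM elsewhere. In bulk RNA a smaller number of cells of one kind and less RNA per cell cannot be told apart. Counts and medians of the 4 classes are therefore also given without KO 3 and KO 4 and without WT 6 and WT 9, a choice made after the data were seen. The further lists outside the 37 genes were not recounted in this way.

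Among the 37 genes, 33 had a positive difference and 4 a negative one, beside 55.2% positive among all 10732 genes tested. The median difference was 0.30 over the 37 genes and 0.04 over all genes tested. The low-value filter (at least 1 TPM in at least 4 libraries) left 35 of them for testing, with Cebpb and Pycr1 below it. No member passed limma's test after Benjamini-Hochberg adjustment over all genes at 0.05, a threshold passed by 0.028% of genes tested. The lowest adjusted p among them was 0.237, for Got1. At an unadjusted limma p under 0.05 there were 9 of 35 members with higher values in KO (Atf4, Ddit3, Chac1, Nupr1, Asns, Mthfd2, Got1, Slc3a2 and Iars) and 0 with lower values. The background shares were 6.01% higher, 3.07% lower and 9.08% in either direction among all genes tested. Because the 37 genes were listed with earlier results of these data known, their counts are descriptions and not an independent test. Other scalings moved the median of all genes tested from 0.04 to -0.07, with quantile normalization or with the most abundant and ribosomal protein genes left out of the sums. Positive members then numbered 7 or 8 of 9 stress factors, 7 of 10 enzymes, 4 or 5 of 7 transporters and 10 or 11 of 11 synthetases. The KO and WT libraries did not overlap for Atf4 and Got1, both higher in KO, beside 2.62% of all genes higher and 2.4% lower without overlap.

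**Figure D1:**
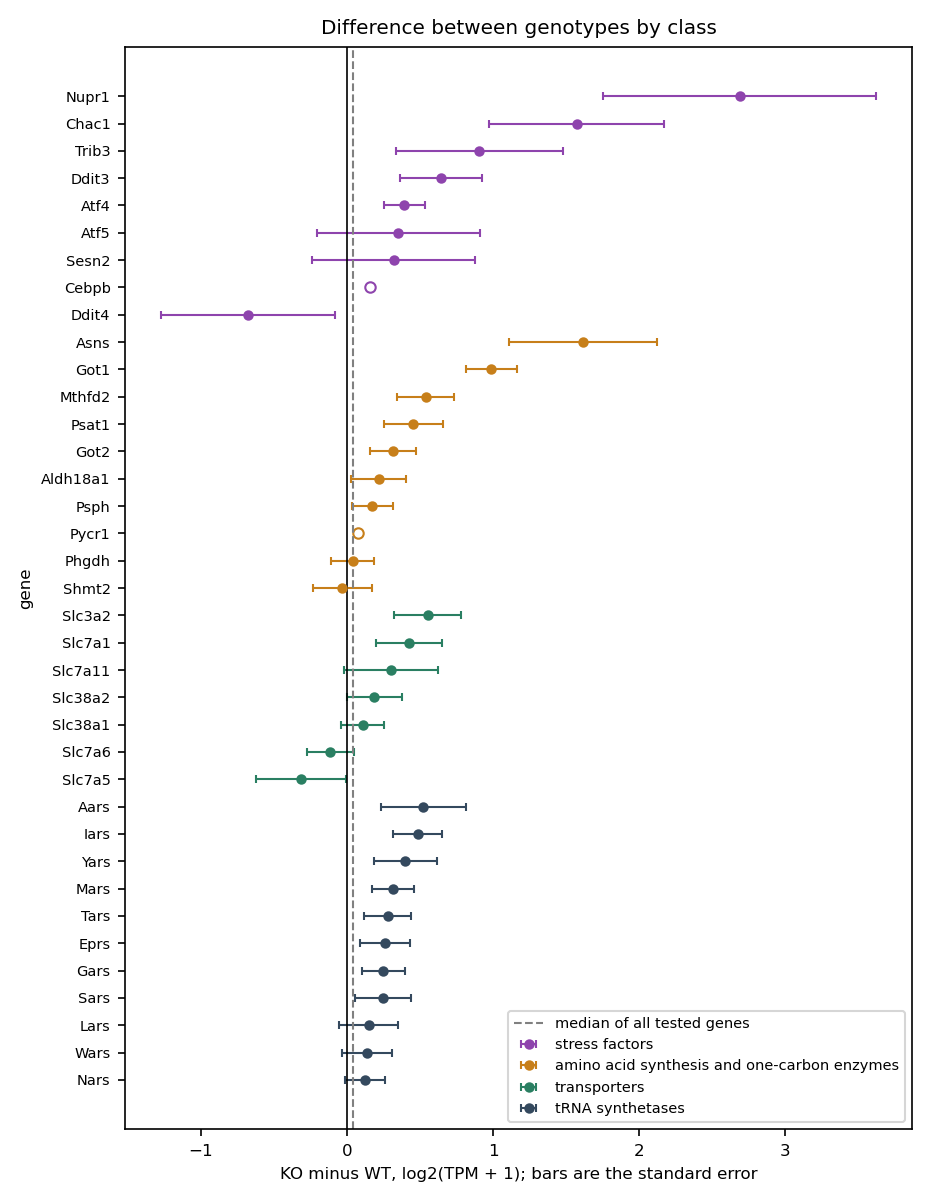
KO minus WT difference of log2(TPM + 1) for each of the 37 genes (x axis), ordered by class, with bars of 1 standard error and open circles for the 2 genes below the low-value filter. In this scaling all 11 tRNA synthetases lie to the right of 0 between 0.12 and 0.52, and the widest spread is among the stress factors, from -0.68 for Ddit4 to 2.69 for Nupr1.

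The number of members at an unadjusted p under 0.05 depended on which libraries were present. With fewer libraries or an added covariate the test has less power, so a gene can leave the count while its difference holds. Atf4 left it without KO 3 and KO 4 at a difference of 0.38, beside 0.39 with all libraries. It was 1 of 36 tested without KO 3 and KO 4 (background 1.73% higher) and 1 of 37 without WT 6 and WT 9 (background 3.63%), and in both settings the gene was Got1. Without both pairs it was again Got1 (background 3.51% higher), with 3 of 35 genes lower in KO (Atf5, Ddit4 and Sesn2), near the background of 8.88% lower. Leaving out 1 library gave 4 members without KO 3 (background 3.36% higher) and 6 without KO 4 (3.11%). There were 3 without WT 6 (3.9%) and 4 without WT 9 (4.65%). The count was 8 without KO 1 (8.19%), 11 without KO 2 (7.11%), 14 without WT 7 (8.04%) and 9 without WT 8 (7.29%). The background also moved, though not in step with the members in every setting. With the mean of the macrophage and stromal markers as a covariate, Got1 alone had an unadjusted p under 0.05 (background 1.56% higher). With the covariate the differences of Nupr1 (0.86), Chac1 (0.66), Asns (1.25), Mthfd2 (0.23), Got1 (0.74) and Iars (0.34) were smaller. Without it they were 2.69, 1.57, 1.62, 0.54, 0.99 and 0.48. Those of Atf4 (0.40), Ddit3 (0.78) and Slc3a2 (0.61) were larger with the covariate, beside 0.39, 0.64 and 0.55 without it.

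Stress factors had the highest class median, 0.39 on the log2 scale, with 8 of 9 genes positive. Atf4 (chromosome 15, 80255184 to 80257541 in GENCODE M21, GRCm38) was the most abundant of them. It was at 182, 191, 207 and 174 TPM in KO 1 to 4 and at 121, 170.5, 153 and 132 TPM in WT 6 to 9. Every KO library was above every WT library, although WT 7 came within a few TPM of KO 4. The means were 188 ± 14.2 and 144 ± 22.0 TPM (SD, n = 4 each), a difference of 0.39 (SE 0.14, limma adjusted p = 0.494). It was 0.38 without KO 3 and KO 4, 0.22 without WT 6 and WT 9 and 0.20 without both.

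Ddit3 encodes CHOP, a transcription factor induced downstream of ATF4 that can promote cell death. Its level was 89.4, 71.0, 80.5 and 60.6 TPM in KO 1 to 4 and 30.5, 73.8, 61.8 and 36.2 TPM in WT 6 to 9. Only WT 6 and WT 9 lay below the KO range. The difference was 0.64 (SE 0.28, limma adjusted p = 0.537) and 0.14 without WT 6 and WT 9. The 3′ end of Ddit3 overlaps the oppositely oriented gene Mars by 68 exonic bases, where reads of the 2 genes cannot be told apart without strand information.

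Nupr1, a small stress-induced chromatin protein, had the largest difference of all 37 genes. It was at 15.2, 0.907, 32.6 and 49.2 TPM in KO 1 to 4 and at 0, 1.80, 1.39 and 3.54 TPM in WT 6 to 9. KO 2 lay inside the WT range while KO 3 and KO 4, the libraries with macrophage markers, were highest. The difference of 2.69 (SE 0.93, limma adjusted p = 0.476) became 1.25 without KO 3 and KO 4 and 0.86 with the marker covariate.

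Chac1, an enzyme that degrades glutathione, was at 1.04, 0.907, 8.97 and 4.63 TPM in KO 1 to 4. In WT libraries it was at 1.80 TPM in WT 7 and listed at 0 in the other 3. Its difference was 1.57 (SE 0.60, limma adjusted p = 0.502) with all libraries and 0.61 without KO 3 and KO 4. These levels amount to a few units of the deposited score outside KO 3 and KO 4.

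The remaining stress factors were low and did not separate the genotypes. Ddit4, an inhibitor of mTORC1, was the 1 stress factor with a negative difference (-0.68, SE 0.60). It ranged from 6.24 to 20.9 TPM in KO and was at 15.4, 55.3, 41.7 and 7.47 TPM in WT 6 to 9, so WT 7 and WT 8 were highest and WT 6 and WT 9 lay inside the KO range. Trib3, a pseudokinase that feeds back on ATF4, ranged from 4.53 to 7.18 TPM in KO and from 0 to 6.75 TPM in WT libraries. Sesn2, a leucine sensor that restrains mTORC1, ranged from 2.12 to 13.05 TPM and from 1.57 to 8.55 TPM. The transcription factors Atf5 and Cebpb were at most 3.37 TPM in any library and at 0 in both WT 6 and WT 9. Both were also at 0 in KO 1, and Cebpb was at 0 in KO 2.

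The class median of the stress factors turned from 0.39 to -0.07 without WT 6 and WT 9, with 4 of 9 genes positive, and to -0.20 without KO 3 and KO 4 as well. Without KO 3 and KO 4 alone it was 0.38, with 5 of 9 positive. Atf4, Ddit3, Chac1 and Nupr1 kept a positive difference in each of these settings. Atf5, Cebpb and Sesn2 were negative in all 3.

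Enzymes of amino acid synthesis and one-carbon metabolism had 9 of 10 genes positive and a class median of 0.27. Without KO 3 and KO 4, 8 were positive (median 0.17). The count was 9 without WT 6 and WT 9 (median 0.29) and 9 without both (median 0.11). The medians over all genes tested in these settings were -0.02, -0.04 and -0.11. Got1 (chromosome 19, 43499752 to 43524605), the cytosolic aspartate aminotransferase that links glutamate, aspartate and the malate-aspartate shuttle, stood out within the class. It was at 51.6, 52.9, 67.3 and 69.4 TPM in KO 1 to 4 and at 23.6, 29.2, 35.1 and 31.9 TPM in WT 6 to 9. All 4 KO libraries were above all 4 WT libraries, including those with and without macrophage or naive T cell markers. The means were 60.3 ± 9.35 and 29.9 ± 4.87 TPM (SD, n = 4 each), a ratio of 2.01 and a log2 difference of 0.99 (SE 0.17, limma adjusted p = 0.237). It was 0.80 without KO 3 and KO 4, 0.88 without WT 6 and WT 9 and 0.69 without both.

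Got2, the mitochondrial partner of Got1, ranged from 81.4 to 98.9 TPM in KO and was at 59.3, 88.6, 72.2 and 61.4 TPM in WT 6 to 9. WT 7 lay inside the KO range. Its difference was 0.32 (SE 0.16, limma adjusted p = 0.575) and 0.07 without both pairs of libraries.

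Asns (chromosome 6, 7675169 to 7693254) encodes asparagine synthetase, a textbook ATF4 target. It was at 27.0, 13.6, 35.9 and 37.5 TPM in KO 1 to 4 and at 5.69, 21.1, 9.72 and 3.15 TPM in WT 6 to 9. KO 2 and WT 7 were the 2 libraries that made the groups overlap. The means were 28.5 ± 10.9 and 9.93 ± 7.95 TPM (SD, n = 4 each), a difference of 1.62 (SE 0.51, limma adjusted p = 0.448). That difference was 1.17 without KO 3 and KO 4, 0.84 without WT 6 and WT 9 and 0.39 without both.

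The serine pathway's genes differed in size of difference. Phgdh, which makes the first committed step of serine synthesis, had the highest level of the class. It was at 238, 176, 180 and 227 TPM in KO 1 to 4 and at 171, 217, 198 and 208.5 TPM in WT 6 to 9, a difference of 0.04 (SE 0.15) that turned negative under other scalings. Psat1 ranged from 63.1 to 109.8 TPM in KO and from 51.5 to 72.4 TPM in WT libraries, and Psph, the last step, from 33.6 to 41.3 and from 31.3 to 38.2 TPM. KO 4 was the highest library for Psat1, and the ranges of both genes overlapped.

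Mthfd2, a mitochondrial enzyme of the folate cycle, was at 55.8, 47.8, 76.3 and 81.2 TPM in KO 1 to 4 and at 40.6, 50.8, 46.2 and 37.8 TPM in WT 6 to 9. KO 3 and KO 4 were highest and KO 2 lay below WT 7. The difference of 0.54 (SE 0.20, limma adjusted p = 0.497) became 0.24 without KO 3 and KO 4. Shmt2, which supplies Mthfd2 with one-carbon units from serine, had its highest values in WT 6 and WT 9, at 86.2 and 86.5 TPM, and a difference of -0.03. Aldh18a1, an enzyme of proline synthesis, ranged from 34.2 to 49.2 and from 28.3 to 45.9 TPM, and Pycr1, which completes that pathway, was at most 2.39 TPM.

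**Figure D2:**
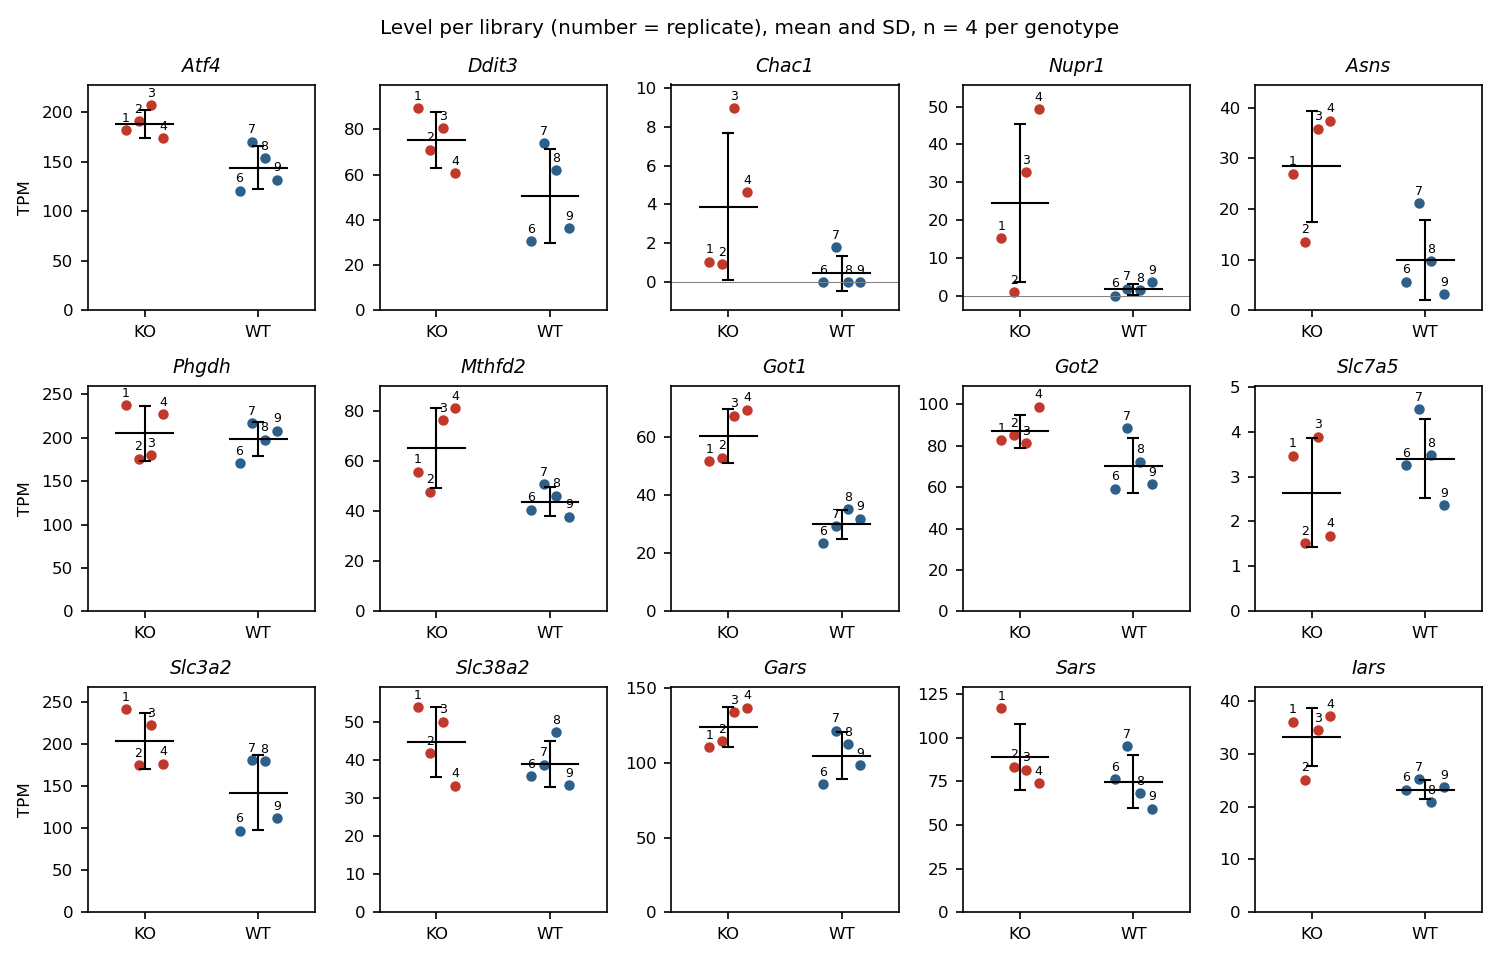
TPM in each library (points, numbered by replicate) for the 15 genes chosen for full description, with the mean and SD of each genotype (n = 4). The genotypes separate for Atf4 and Got1, while in Ddit3, Asns and Slc3a2 the 2 lowest libraries are WT 6 and WT 9 and WT 7 reaches the KO range.

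Transporters had the lowest class median, 0.19, with 5 of 7 genes positive. The count was 5 without KO 3 and KO 4 and also without WT 6 and WT 9, and 4 without both, with medians of 0.05, 0.06 and 0.08. Slc3a2, the heavy chain that carries several amino acid exchangers to the cell surface, was the most abundant. It was at 241.5, 175, 223 and 177 TPM in KO 1 to 4 and at 97.1, 181, 180.2 and 112 TPM in WT 6 to 9. WT 7 and WT 8 lay inside the KO range and WT 6 and WT 9 below it. The difference was 0.55 (SE 0.23, limma adjusted p = 0.527) and 0.16 without WT 6 and WT 9.

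Slc7a5, the leucine transporter that pairs with Slc3a2, was low and had the opposite sign. It was at 3.47, 1.51, 3.89 and 1.68 TPM in KO 1 to 4 and at 3.25, 4.50, 3.47 and 2.36 TPM in WT 6 to 9, a difference of -0.31 (SE 0.31, limma adjusted p = 0.786). On the rescaled score the level of Slc3a2 was above that of Slc7a5 in all 8 libraries. Other light chains were Slc7a6, at 23.9 to 28.7 TPM in KO and 24.3 to 35.8 TPM in WT libraries, and Slc7a11, the cystine carrier, at most 1.68 TPM.

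Slc38a2, a sodium-coupled carrier of neutral amino acids, was at 53.7, 41.7, 49.96 and 33.2 TPM in KO 1 to 4 and at 35.8, 38.7, 47.2 and 33.4 TPM in WT 6 to 9. KO 4 was the lowest library, and the groups overlapped (difference 0.19, SE 0.19, limma adjusted p = 0.788). Slc38a1, a related glutamine carrier, varied least of all transporters, from 21.5 to 30.8 TPM over the 8 libraries. Slc7a1, the arginine carrier, ranged from 9.07 to 12.3 TPM in KO and from 5.21 to 9.35 TPM in WT libraries, a difference of 0.42 (SE 0.22, limma adjusted p = 0.597) that was 0.37 without KO 3 and KO 4 and 0.56 without WT 6 and WT 9.

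Cytosolic tRNA synthetases, which load amino acids onto their tRNAs, had small differences of one sign. All 11 were positive, between 0.12 for Nars and 0.52 for Aars, with a median of 0.26. None had genotypes apart, beside 2.62% of all genes tested higher and 2.4% lower without overlap. At an unadjusted p under 0.05 there was 1 of 11, Iars, beside 6.01% of all genes tested higher in KO. Gars, the glycyl enzyme and the most abundant, was at 110.5, 115, 134 and 137 TPM in KO 1 to 4 and at 85.8, 121, 112.5 and 98.3 TPM in WT 6 to 9 (difference 0.25, SE 0.15, limma adjusted p = 0.637). WT 7 and WT 8 overlapped KO 1 and KO 2.

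Sars, the seryl enzyme, was highest in KO 1 at 117 TPM and otherwise at 83.4, 81.7 and 74.1 TPM in KO 2 to 4. In WT 6 to 9 it was at 76.4, 94.9, 68.1 and 59.4 TPM (difference 0.25, SE 0.19, limma adjusted p = 0.712). Iars, the isoleucyl enzyme (chromosome 13, 49682100 to 49734267), was at 36.0, 25.1, 34.4 and 37.0 TPM in KO 1 to 4 and at 23.2, 25.2, 20.8 and 23.6 TPM in WT 6 to 9. KO 2 lay within a fraction of a TPM of WT 7, and the other KO libraries were above all WT libraries. The difference of 0.48 (SE 0.17, limma adjusted p = 0.474) was 0.36 without KO 3 and KO 4, 0.50 without WT 6 and WT 9 and 0.38 without both.

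Aars, the alanyl enzyme, had the largest difference of the class. It was at 36.5 and 35.3 TPM in KO 3 and KO 4, at 20.4 and 22.1 TPM in KO 1 and KO 2, at 24.7 and 27.1 TPM in WT 7 and WT 8 and at 13.8 TPM in both WT 6 and WT 9. Its exons share 1326 bases with annotated transcripts of Exosc6 on the same strand, so its level is uncertain. The difference was 0.52 with all libraries and -0.27 without both pairs.

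The other 7 synthetases (Nars, Mars, Tars, Wars, Yars, Eprs and Lars) lay between 18.5 and 81.1 TPM in all libraries. Their differences ran from 0.12 to 0.40, and all had overlapping genotypes. Wars, the tryptophanyl enzyme, which is also induced by interferon gamma, was highest in WT 9 at 70.02 TPM. With libraries left out, all 11 synthetases stayed positive without KO 3 and KO 4 (median 0.16), 10 stayed positive without WT 6 and WT 9 (median 0.14), and 6 without both (median 0.06, beside -0.11 over all genes tested). When the library sums left out the 20 most abundant genes and those of ribosomal proteins, 10 were positive, with a median of 0.14 beside -0.07 over all genes tested.

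**Figure D3:**
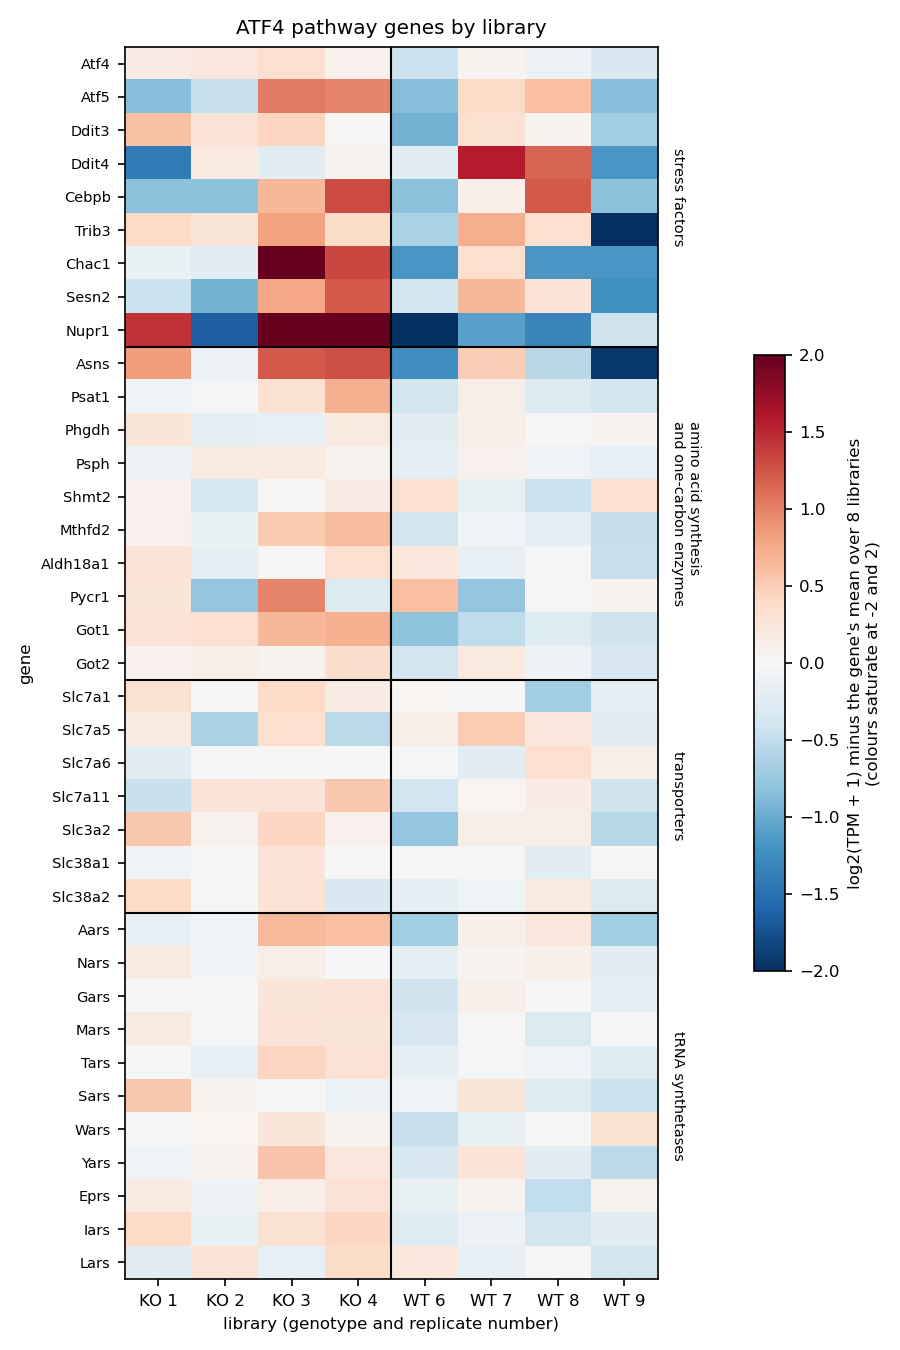
Heat map of log2(TPM + 1) minus each gene's own mean over the 8 libraries, for the 37 genes (rows, by class) and 8 libraries (columns, KO left of the line). KO 3 and KO 4 are the reddest columns and WT 6 and WT 9 the bluest, most of all among stress factors and Asns, while Got1 changes colour at the line between genotypes.

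Viewed by library, stress factors, enzymes and synthetases were highest in KO 3 and KO 4 and lowest in WT 6 and WT 9. Mean deviations from each gene's own average put stress factors at 0.94 in both KO 3 and KO 4, at -0.12 and -0.35 in KO 1 and KO 2, at 0.34 and 0.12 in WT 7 and WT 8, and at -0.89 and -0.98 in WT 6 and WT 9. WT 7 and WT 8 thus lay above KO 1 and KO 2 for this class. For the enzymes the deviations were 0.20, -0.12, 0.38 and 0.41 in KO 1 to 4 and -0.25, -0.07, -0.19 and -0.37 in WT 6 to 9. Only KO 2 fell among the WT libraries. For the synthetases they were 0.09, -0.01, 0.26 and 0.24 in KO 1 to 4 and -0.26, 0.04, -0.12 and -0.24 in WT 6 to 9, with WT 7 lying between KO 2 and KO 1. For the transporters the deviations ran from -0.22 in WT 9 to 0.28 in KO 3, a range like that of the synthetases. WT 6 was next lowest at -0.18, and KO 4 was at -0.01.

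Counted gene by gene, WT 6 and WT 9 were both below the other 6 libraries for 14 of 37 genes, beside 17.3% of all genes tested. These were 3 stress factors, 5 enzymes, 1 transporter and 5 synthetases. One or the other of these 2 libraries was the lowest of the 8 for 24 of 37 genes, beside 39% of all genes tested. KO 3 and KO 4 were both above the other 6 libraries for 12 of 37 genes, beside 14.2% of all genes tested, and these were 4 stress factors, 4 enzymes and 4 synthetases. The macrophage marker sum was highest in KO 3 and KO 4 and the naive and memory marker sum highest in WT 6 and WT 9. Erythroid markers were highest in KO 1, where Nupr1 was at 15.2 TPM. The part of any of these in the levels of these genes was not tested beyond the settings given.

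**Figure D4:**
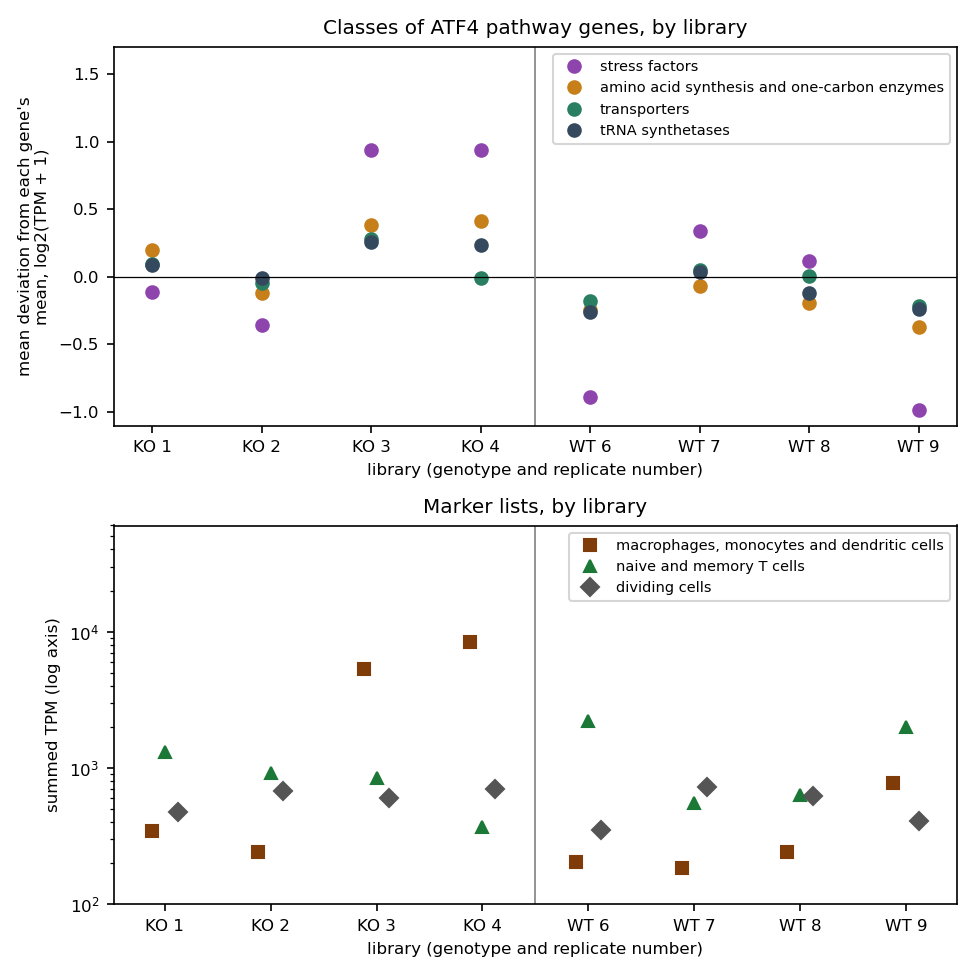
Upper panel: mean deviation of each class from its genes' own averages, log2(TPM + 1), by library. Lower panel: summed TPM of marker lists on a log axis. Stress factors reach 0.94 in KO 3 and KO 4, where macrophage markers sum to 5354 and 8426 TPM, and are lowest in WT 6 and WT 9, where naive and memory markers sum to 2220 and 1988 TPM.

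**Figure D5:**
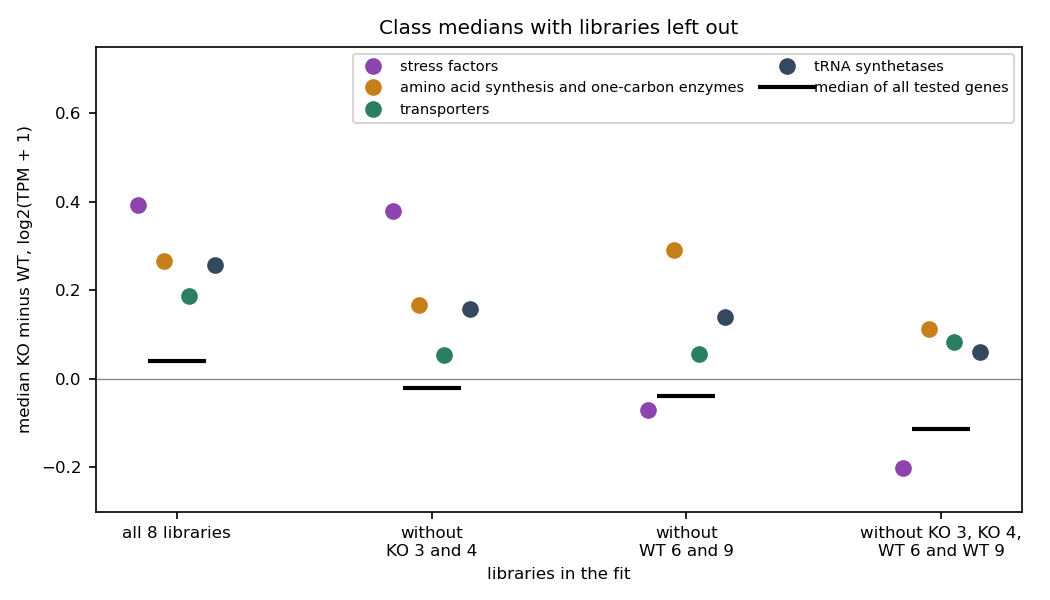
Median KO minus WT difference of each class (points) and of all genes tested (black bars) with all libraries and with KO 3 and KO 4, WT 6 and WT 9, or both pairs left out. The stress factor median turns from 0.39 to -0.07 without WT 6 and WT 9, and the enzyme median stays positive at 0.11 or more in all 4 settings.

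Upstream of ATF4, the kinases, phosphatase subunits and eIF2 subunits were close to even, with 8 of 15 genes positive and a median of 0.04. At an unadjusted p under 0.05 there were 2 of 15 higher and 0 lower, beside 6.01% higher and 3.07% lower among all genes tested. After adjustment over all genes 0 passed. Eif2s2, the beta subunit of eIF2, was at 62.7, 55.0, 68.8 and 61.9 TPM in KO 1 to 4 and at 45.9, 44.1, 47.9 and 45.6 TPM in WT 6 to 9. The genotypes did not overlap (difference 0.42, SE 0.12, limma adjusted p = 0.412). Ppp1r15b, a subunit that directs dephosphorylation of eIF2, was at 24.2 to 40.5 TPM in KO and 19.5 to 29.5 TPM in WT libraries (difference 0.49, limma adjusted p = 0.527). Ppp1r15a, its stress-induced relative, named after its values were seen, had the lowest difference of the list at -0.45. It was at 259.6, 207, 126 and 61.0 TPM in KO 1 to 4 and at 260.5, 144, 202.5 and 191 TPM in WT 6 to 9, so that KO 3 and KO 4 were the lowest 2 libraries.

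Further ATF4-linked genes outside the 37 had 12 of 19 positive, 5 negative and a median of 0.22. Of the 10 tested, 4 had higher values at an unadjusted p under 0.05 and 0 lower, beside 6.01% and 3.07% of all genes tested. Herpud1, a component of protein degradation at the endoplasmic reticulum, was at 89.4, 81.0, 103 and 83.3 TPM in KO 1 to 4 and at 65.0, 72.0, 60.1 and 57.0 TPM in WT 6 to 9, without overlap (difference 0.48, SE 0.14, limma adjusted p = 0.395). Bcat1, which transaminates branched-chain amino acids, was low and also without overlap, at 1.81 to 6.31 TPM in KO and 0.45 to 1.63 TPM in WT libraries. Atf3, a stress-induced repressor, was at 23.9, 3.63, 44.6 and 38.3 TPM in KO 1 to 4 and at 2.44, 11.2, 2.43 and 1.97 TPM in WT 6 to 9. Cdkn1a, the cell cycle inhibitor p21, was at 35.3, 26.6, 97.2 and 107 TPM and at 4.06, 41.4, 29.2 and 3.15 TPM. Both had their highest values in KO 3 and KO 4, the libraries with macrophage markers.

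One-carbon and serine-glycine genes outside the 37 had 10 of 12 positive and a median of 0.35. Of the 8 tested, 2 were higher at an unadjusted p under 0.05, beside 6.01% of all genes tested. Gldc, which cleaves glycine in mitochondria, was at 3.47, 14.8, 21.5 and 27.4 TPM in KO 1 to 4 and at 0.406, 1.80, 1.74 and 4.33 TPM in WT 6 to 9. Only WT 9 reached KO 1 (difference 2.40, SE 0.60, limma adjusted p = 0.395). Shmt1, the cytosolic counterpart of Shmt2, was at 14.8 to 30.3 TPM in KO and 5.40 to 14.2 TPM in WT libraries, without overlap (difference 0.81, SE 0.32, limma adjusted p = 0.517).

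Amino acid transporters outside the 37 had 12 of 21 positive and a median of 0.13. Of the 14 tested, the 1 gene at an unadjusted p under 0.05 had lower values in KO, beside 3.07% lower among all genes tested. This was Slc1a5, a glutamine exchanger of activated T cells. It was at 34.7, 50.5, 76.3 and 72.0 TPM in KO 1 to 4 and at 101, 153, 131 and 90.1 TPM in WT 6 to 9. All KO libraries lay below all WT libraries, and WT 6 and WT 9, with the most naive and memory markers, were the lower 2 of the WT group. The difference was -1.05 (SE 0.27, limma adjusted p = 0.395), opposite in sign to Slc3a2.

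Of the synthetases and scaffold proteins outside the 37, the other cytosolic ones had 9 of 12 positive and a median of 0.09. The 17 mitochondrial synthetases had 8 positive and a median of -0.03, which is below the 0.04 of all genes tested. Neither list had a gene at an unadjusted p under 0.05, beside 9.08% of all genes tested in either direction. Beside them the 11 cytosolic synthetases described above had a median of 0.26, and the difference between these lists was not tested.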

How the data were processed

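The authors deposited 1 table of 20029 genes by symbol and 8 libraries, a score they named TPM-normalized count: whole numbers with unequal library sums, so neither raw counts nor TPM. Per the submitters' processing notes, RSEM 1.3.3 and mm10 were used. Which aligner, annotation, scaling and rounding were used is not given in the sources used here. The planned test assumed TPM, so each library was rescaled to 1000000, and log2(TPM + 1) was tested with R 4.3.3 and limma 3.58.1 (trended empirical Bayes, genotype as the only term, Benjamini-Hochberg over the 10732 genes that reached 1 TPM in 4 or more libraries). Where libraries were left out, the filter asked for as many libraries as the smaller group held. Members, lists and rules were chosen with earlier results of these data known.

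Values in every library are given for genes whose genotypes do not overlap or whose unadjusted p is under 0.05, the 2 most abundant genes of each class, and Atf4, Ddit3, Asns and Slc7a5. From each further list, genes at an unadjusted p under 0.05 are named, up to 4. The fit was tested on simulated data with 200 changed genes among 10732. At the adjusted threshold it recovered 37.2% of log2 changes of 1 and 81.4% of changes of 2, with 4.63% false calls. The simulated noise was independent between genes, without the shifts shared by many genes of a library. These rates may therefore not hold for the real libraries. Smaller changes were not simulated, so a member without an adjusted p under 0.05 may still differ. Promoters are RefSeq's, searched with Python 3.11.15.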

Additional observations from a re-analysis of the deposited data

Results flagged for a closer look

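In each genotype, the highest or lowest library was compared with the nearest of the others for the 37 genes and Pglyrp1. Of 75 groups of 4 libraries, 2 were marked, where chance marks about 1 in 20, or 3.75. Chac1 was at 1.80 TPM in WT 7 and listed at 0 in the other 3 WT libraries. Slc38a1 was at 21.5 TPM in WT 8 and at 25.6 TPM in the other 3, a narrow range.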

How the results depend on the processing

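No paired analysis was possible because KO libraries are numbered 1 to 4 and WT libraries 6 to 9. In 21 alternatives (18 planned, 3 chosen after the data were seen) no gene described in full passed the adjusted threshold, the lowest adjusted p being 0.128. Got1 had a positive difference in all 21, from 0.69 to 1.07. Of 312 single-gene values, 10 changed sign. Phgdh did so at -0.0062 with median-ratio scaling, -0.10 with quantile normalization, -0.0875 with ribosomal protein and the 20 most abundant genes removed, -0.0199 with the macrophage and stromal covariate, -0.0268 without WT 6 and 9 and -0.0184 without both pairs. With 1 library left out it ran from -0.0353 to 0.11. Gars turned to -0.0543 without both pairs. Genes past the threshold over the whole table were 3. They were 10 without both pairs and 5 with either pair left out alone. With 1 library left out they ran from 2 to 9, with 9 without KO 2 and 5 without KO 1. Members at an unadjusted p under 0.05 were 1 higher with the covariate and also under each of the 3 settings without pairs of libraries. There were 1 lower without WT 6 and 9 (background 5.47% lower) and 3 lower without both (8.88%). With 1 library left out there were 3 to 14 higher (background 3.11 to 8.19%) and 0 to 1 lower. Positive stress factors were 5 with the covariate, 4 without both pairs, 4 without WT 6 and 9 alone and 5 without KO 3 and 4 alone. Positive synthetases were 6 without both. The stress factor median reversed to -0.0702 without WT 6 and 9 and -0.20 without both. The transporter median was 0.0446 with the covariate and the synthetase median 0.0599 without both. The cause of these shifts was not tested. The balance of all genes turned with scaling: 645 higher and 329 lower at an unadjusted p under 0.05, beside 552 and 572 with quantile normalization and 547 and 612 with abundant genes removed. Unknown depth limits statements on genes of a few TPM.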

Other observations

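Enzymes of glutamine, aspartate, arginine and branched-chain metabolism had 10 of 18 positive differences and a median of 0.08. Arg1, an arginine-degrading enzyme abundant in tumour macrophages, was at 19.8, 0.907, 15.6 and 174 TPM in KO 1 to 4 and at most 1.39 TPM in WT libraries (difference 3.51, limma adjusted p = 0.442). The highest value was in KO 4, where the macrophage marker list summed to 8426 TPM, and the second, in KO 1, came with a sum of 344 TPM.

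Genes of mTORC1 and amino acid sensing had 11 of 21 positive differences and a median of 0.03. Sesn3, a relative of the leucine sensor Sesn2, was at 4.85, 4.53, 6.58 and 4.21 TPM in KO 1 to 4 and at 10.2, 6.75, 15.6 and 9.05 TPM in WT 6 to 9. The genotypes did not overlap, with lower values in KO (difference -0.87, SE 0.27, limma adjusted p = 0.439).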
